A study of Homo sapiens with 12 samples.

Results

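The genes described here were 10 members of the fibroblast growth factor (FGF) system, namely the ligands FGF1, FGF2, FGF5, FGF7, FGF9, FGF10 and FGF18 and the receptors FGFR1, FGFR2 and FGFR4. They are 10 of the 28901 gene names in the deposited expression table. The members were chosen from measured values of these libraries, so their differences between groups are given as a description, with a standard error and without a test. RNA-seq was performed on adipocytes differentiated for 14 days from ASC52telo hTERT, human adipose-derived stromal cells immortalized with telomerase. The cells carried a lentiviral shRNA that was either scrambled (scramble control) or directed against the long intergenic RNA linc-ADAIN (linc-ADAIN KD), and cells positive for the vector's fluorescent ZsGreen marker had been sorted. Each was left without LPS or given LPS, the lipopolysaccharide of Gram-negative bacteria, at 100 ng/mL for 4 h. The 4 groups, scramble control, scramble control with LPS, linc-ADAIN KD and linc-ADAIN KD with LPS, had 3 libraries each, 12 in all. All groups therefore shared the cell line, the viral vector and the differentiation protocol, and the cells had been expanded in medium with added EGF and FGF before differentiation. The KD came from an shRNA in a single established line, and the 3 libraries of a group were a triplicate of the same experiment, so the spread between them is within that experiment. linc-ADAIN levels were not analysed here, so the KD groups rest on their labels.

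FGFs are secreted or otherwise exported ligands that bind receptor tyrosine kinases of the FGFR family at the cell surface. Heparan sulfate chains on proteoglycans such as syndecans and glypicans hold the ligand and help to assemble it with its receptor. Bound receptors act through the adaptor FRS2 and the RAS, RAF and MAP kinase chain, which turns on ETV transcription factors and the feedback inhibitors of the Sprouty, SPRED and DUSP families. FGF1 and FGF2 act on adipose precursor cells, FGF10 acts in the formation of adipose tissue, and FGF7 and FGF10 are ligands that mesenchymal cells make for receptors on epithelial cells.

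Library depth, as the sum of estimated counts over named genes in units of 1e6 (M), ranged from 48.1 to 53.8 M per library in scramble control, 31.5 to 44.5 M in scramble control with LPS, 33.4 to 50.5 M in KD and 28.4 to 45.3 M in KD with LPS. Levels are given as CPM, estimated counts per 1e6 counts after scaling by edgeR's TMM method. The adipocyte markers, a list of 10 genes, summed to 3490 to 4790 CPM in scramble control, 4000 to 4740 with LPS, 766 to 2050 in KD and 625 to 1330 in KD with LPS. Of these 10 genes, 7 were lower in KD without LPS and 8 with LPS by edgeR's quasi-likelihood test at an adjusted p under 0.05 and at least 2-fold, and LPL, a defining adipocyte lipase, had 0 to 82 counts in every library. The 8 stromal cell markers summed to 2990 to 3060, 2710 to 2910, 2290 to 2340 and 2030 to 2240 CPM in the same order of groups, with DLK1 at 0 in every library, but single markers moved apart. Without LPS, THY1 averaged 764 CPM with the scramble shRNA against 148 CPM with the KD, and the corresponding means were 285 and 111 CPM for ENG and 113 and 475 CPM for DPP4. The 4 smooth muscle markers summed to 738 to 913, 325 to 377, 232 to 307 and 122 to 180 CPM. The endothelial markers summed to 5.4 to 19 CPM over the libraries. The leukocyte markers summed to 56.4 to 59.6, 60.5 to 70.9, 87.6 to 115 and 78.2 to 106 CPM, while PTPRC, which encodes the pan-leukocyte surface protein CD45, had 0 to 12 counts per library. The higher sum in KD was that of CD163, with means without LPS of 4.33 CPM for the scramble shRNA and 68.6 CPM for the KD, while CD68 had means of 53.6 and 31.1 CPM. These marker sums moved with the groups, and their part in the FGF results was not tested. In these bulk libraries, fewer cells of a type and less RNA per cell cannot be told apart.

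FGF2, FGF7 and FGF5 had the most counts among the 7 ligands chosen, and they followed 3 different patterns over the groups. Their promoters are shown for that reason, as 250 bases before to 50 after the RefSeq transcription start on GRCh38.p14, all on the plus strand. RefSeq promoters were matched for 8 of the 10 members, all but FGF9 and FGFR1. Capitals mark GGG and CC with any 5 bases between them, a short form of the kappaB motif, on either strand. The same windows were searched on both strands for the AP-1 motif TGANTCA and the CRE motif TGACGTCA, whose matches would also be in capitals, and overlaps between motifs were allowed.

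FGF2 (chr4:122826581-122826880): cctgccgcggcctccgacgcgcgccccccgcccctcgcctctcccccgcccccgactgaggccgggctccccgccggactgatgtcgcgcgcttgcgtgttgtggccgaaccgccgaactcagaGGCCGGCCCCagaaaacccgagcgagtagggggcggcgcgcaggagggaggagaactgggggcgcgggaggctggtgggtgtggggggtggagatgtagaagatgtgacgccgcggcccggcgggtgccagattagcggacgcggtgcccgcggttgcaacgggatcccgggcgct
FGF7 (chr15:49422992-49423291): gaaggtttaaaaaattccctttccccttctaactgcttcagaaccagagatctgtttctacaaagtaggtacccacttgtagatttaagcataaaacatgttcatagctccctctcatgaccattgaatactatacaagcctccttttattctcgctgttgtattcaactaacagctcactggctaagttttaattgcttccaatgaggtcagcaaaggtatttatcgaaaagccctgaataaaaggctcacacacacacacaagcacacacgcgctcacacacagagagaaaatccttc
FGF5 (chr4:80266338-80266637): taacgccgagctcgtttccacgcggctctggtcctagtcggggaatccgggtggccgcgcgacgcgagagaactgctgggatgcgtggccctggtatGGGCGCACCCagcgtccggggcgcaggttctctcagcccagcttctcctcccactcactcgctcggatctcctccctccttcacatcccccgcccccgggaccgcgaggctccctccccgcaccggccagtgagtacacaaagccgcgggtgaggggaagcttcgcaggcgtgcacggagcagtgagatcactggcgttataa

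The FGF2 window was 74.7% G and C and held 1 kappaB match, 126 bases before the start. The FGF5 window was 67% G and C with 1 kappaB match, 153 bases before the start, and a further FGF5 start in RefSeq has a window of its own that is not shown. The FGF7 window was 40.3% G and C and held no kappaB match. None of the 3 windows held the AP-1 or CRE letters. For comparison, the kappaB letters stood in 58.7% of all 35116 promoters of this length, the AP-1 letters in 7.71% and the CRE letters in 1.85%. These matches describe letters in a window and do not show binding.

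FGF2, the basic FGF, a heparin-binding mitogen that leaves the cell without a signal peptide, was highest in KD adipocytes given LPS. The gene is on chromosome 4 from 122826682 to 122898236 on the plus strand (GRCh38). In scramble control, FGF2 was at 382, 424 and 420 CPM in replicates 1 to 3. With LPS, the scramble libraries had 397, 401 and 485 CPM. The KD libraries without LPS had 332, 396 and 367 CPM. With LPS, the KD libraries had 866, 876 and 1004 CPM, above each of the other 9 libraries.
The group means were 409 ± 22.9 CPM in scramble control, 428 ± 50 CPM with LPS, 365 ± 32.1 CPM in KD and 915 ± 76.9 CPM in KD with LPS (SD, n = 3 libraries each). Scramble control overlapped both scramble control with LPS and KD without LPS, and the highest KD library without LPS, at 396 CPM, was just under the lowest scramble library with LPS, at 397 CPM. KD with LPS stood apart from all of them. In KD, the LPS log2 fold change was 1.33 (standard error 0.082), a 2.51-fold higher level. In scramble control the log2 fold change with LPS was 0.08 (standard error 0.092). The KD log2 fold change was −0.16 (standard error 0.083) without LPS and 1.10 (standard error 0.092) with LPS, the latter 2.14-fold. The interaction, the KD log2 fold change with LPS minus that without, was 1.26 (standard error 0.13).

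**Figure D1:**
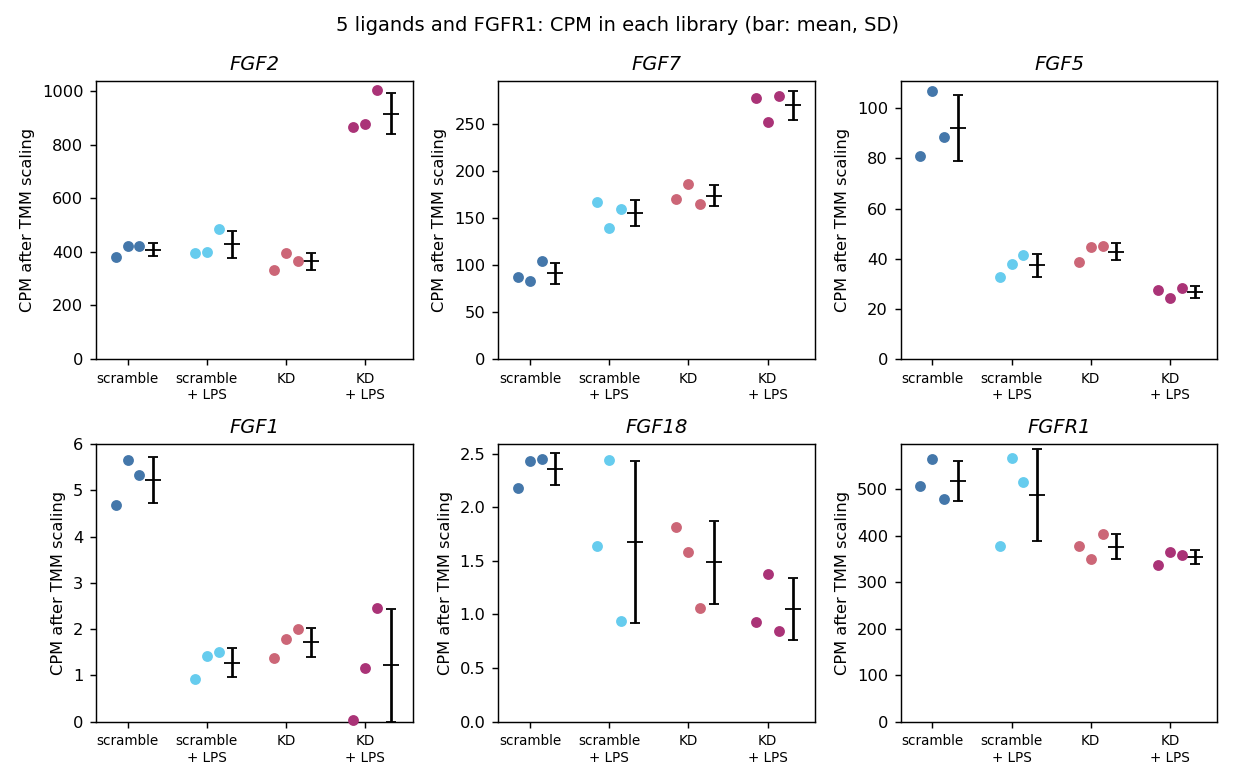
CPM after TMM scaling (vertical axes, each from 0) of FGF2, FGF7, FGF5, FGF1, FGF18 and FGFR1 in the 4 groups (horizontal axes). Points are libraries and bars give the mean and SD of 3 libraries, with FGF2 at 866 to 1004 CPM in KD with LPS and at 332 to 485 CPM in the other 9 libraries.

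The FGF2 gene overlaps NUDT6, which is transcribed from the opposite strand. Of the 31-base words in FGF2 transcripts, 11.4% also occur in antisense orientation in another gene, mostly NUDT6. The strand setting of the counting was not given in the sources used here, so whether reads were shared is not known. NUDT6 had 95 to 247 counts per library, 0.462% to 1.41% of the FGF2 count of the same library. The ratio in KD with LPS was 0.464% to 0.585%.

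The 3 other genes whose pattern over the 12 libraries was most like that of FGF2, by the root mean square difference of centred log2 CPM among 8618 genes, were FAS, HIVEP2 and SAMD4A. Their differences from the FGF2 pattern were 0.18, 0.19 and 0.19. FAS, which encodes a death receptor, had mean levels of 43.1 CPM in scramble control, 47.7 CPM with LPS, 44.5 CPM in KD and 85.2 CPM in KD with LPS. HIVEP2 had means of 50.6, 68.2, 52.0 and 136 CPM and SAMD4A of 105, 127, 90.3 and 202 CPM in the same order of groups. The measure gives likeness over these libraries only.

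FGF7, the keratinocyte growth factor, was higher with either the KD or LPS and highest with both. It is encoded on chromosome 15 from 49423237 to 49488775 on the plus strand (GRCh38). The scramble libraries had 86.8, 83.1 and 104 CPM. With LPS, they had 167, 140 and 160 CPM. The KD libraries had 171, 187 and 165 CPM without LPS. The KD libraries with LPS had 278, 253 and 280 CPM.
Scramble control was below the other 9 libraries, KD with LPS was above them, and scramble control with LPS overlapped KD without LPS. Group means were 91.3 ± 11.1, 155 ± 14.1, 174 ± 11.4 and 270 ± 15.4 CPM (SD, n = 3 libraries each) in the order scramble control, scramble control with LPS, KD, KD with LPS. The KD log2 fold change was 0.93 (standard error 0.097) without LPS, a 1.91-fold higher level, and 0.80 (standard error 0.086) with LPS. The LPS log2 fold change was 0.78 (standard error 0.10) in scramble control and 0.64 (standard error 0.078) in KD. The interaction was −0.13 (standard error 0.13). Each of the 4 differences was under 2-fold. Without scramble replicate 3 the KD value without LPS was 1.03, just past 2-fold, and with scaling by library size alone it was 1.04, where the median of all genes moved to 0.13.

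FGF7 has partial copies elsewhere in the genome, and 12.5% of its 31-base words also occur on the same strand in another gene. The long noncoding RNA ENSG00000291011, whose counts were not analysed here, holds 10.7% of all FGF7 words and so most of the shared ones. The named copies FGF7P3 and FGF7P6 and their relatives together had 1.55% to 2.95% of the FGF7 count in each library. FGF7P6 was higher in KD with LPS than in scramble control with LPS (log2 fold change 1.20, standard error 0.35, adjusted p = 0.021 by edgeR's test over all genes). That call was lost without any of scramble with LPS replicates 1 and 3 or KD with LPS replicates 1 and 2, with adjusted p-values of 0.056, 0.07, 0.11 and 0.056 by edgeR. How reads were split between FGF7 and these copies is uncertain.

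FGF5, a ligand best known for ending the growth phase of hair follicles, was highest where FGF7 was lowest and lowest where FGF7 was highest. The FGF5 gene is on chromosome 4 from 80266639 to 80336680 on the plus strand (GRCh38). The scramble libraries had 81.1, 107 and 88.6 CPM. With LPS, they had 32.7, 37.9 and 41.6 CPM. The KD libraries without LPS had 38.8, 44.5 and 44.9 CPM. With LPS, the KD libraries had 27.5, 24.2 and 28.4 CPM.
Scramble control was above the other 9 libraries, KD with LPS was below them, and the middle groups overlapped each other. Group means were 92.1 ± 13.2, 37.4 ± 4.48, 42.8 ± 3.41 and 26.7 ± 2.20 CPM (SD, n = 3 libraries each). For the KD the log2 fold change was −1.10 (standard error 0.11) without LPS, a 2.15-fold lower level, and −0.49 (standard error 0.12) with LPS. LPS went with −1.29 (standard error 0.12) in scramble control, a 2.44-fold lower level, and with −0.68 (standard error 0.11) in KD. The interaction was 0.62 (standard error 0.16), so each difference was smaller where the other condition was present. Without scramble replicate 2, the library with the highest FGF5, the KD value without LPS was −0.99, just under 2-fold, and with scaling by library size alone the call was lost as well. Of the 31-base words of FGF5, 7.89% also occur on the same strand in other genes.

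Ratios of counts within a library do not depend on the scaling between libraries. The FGF7 count divided by the FGF5 count was 0.778 to 1.17 in scramble control, 3.69 to 5.11 in scramble control with LPS, 3.67 to 4.39 in KD and 9.85 to 10.4 in KD with LPS. The 2 middle groups overlapped and lay between the other 2. The FGF2 count divided by the FGFR1 count was 0.752 to 0.877 in scramble control, 0.706 to 1.05 with LPS, 0.878 to 1.14 in KD and 2.40 to 2.80 in KD with LPS. The last group was above all others, and KD without LPS overlapped scramble control with LPS and began just above scramble control. The adipocyte marker sums of KD replicates 1 to 3 were 2050, 1570 and 766 CPM, and their FGF7 to FGF5 ratios were 4.39, 4.19 and 3.67. In KD with LPS the marker sums were 1330, 973 and 625 CPM, and the ratios were 10.1, 10.4 and 9.85. The marker sums also moved with the groups, and whether they have a part in these ratios was not tested.

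**Figure D2:**
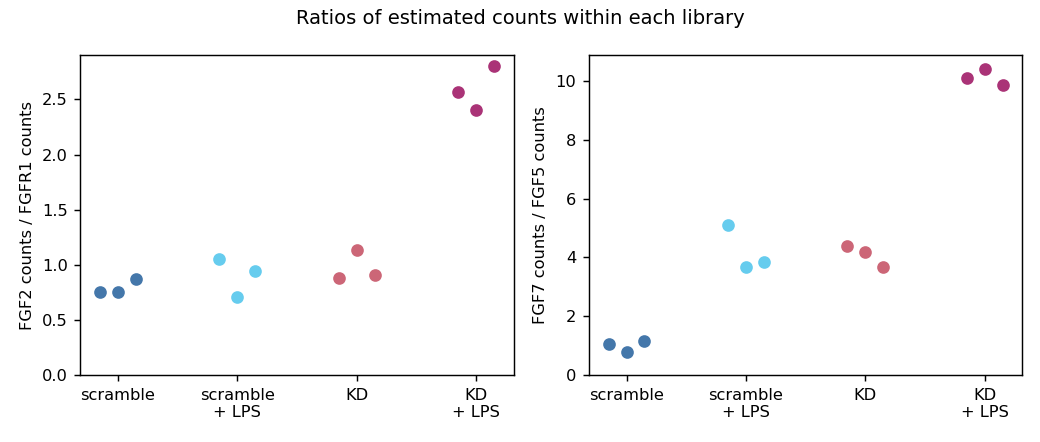
Ratios of estimated counts within each of the 12 libraries (points) by group (horizontal axes), FGF2 over FGFR1 on the left and FGF7 over FGF5 on the right, with both vertical axes from 0. FGF2 over FGFR1 is 2.40 to 2.80 in KD with LPS and 0.706 to 1.14 elsewhere, and FGF7 over FGF5 runs from 0.778 to 1.17 in scramble control to 9.85 to 10.4 in KD with LPS.

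FGF1, the acidic FGF, which binds all FGF receptors and takes part in the remodelling of adipose tissue, was lower in each group other than scramble control. Its gene lies on chromosome 5 from 142592178 to 142698070 on the minus strand (GRCh38). Its estimated counts were 247, 298 and 248 in scramble control and 36, 43 and 64 with LPS. In KD they were 48, 96 and 81 without LPS. In KD with LPS they were 1, 54 and 70, so replicate 1 lay far below the other two.
In CPM, scramble control was at 5.23 ± 0.497, scramble control with LPS at 1.28 ± 0.314, KD at 1.72 ± 0.313 and KD with LPS at 1.22 ± 1.22 (SD, n = 3 libraries each). Scramble control was above the other 9 libraries, and the other 3 groups overlapped. The KD log2 fold change without LPS was −1.59 (standard error 0.24), a 3.02-fold lower level. The LPS log2 fold change in scramble control was −2.02 (standard error 0.26), a 4.05-fold lower level. In the comparisons that include KD with LPS, the value depended on single libraries. The KD log2 fold change with LPS was −0.08 (standard error 0.84) and 0.49 without KD with LPS replicate 1. Over the 6 fits that each left out a library it ran from −1.08 to 0.49. The LPS log2 fold change in KD was −0.51 (standard error 0.79) and 0.06 without that replicate. It ran from −1.51 to 0.06 over its own 6 such fits. The interaction was 1.51 (standard error 0.89).

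FGF18, a ligand with known roles in bone and lung growth, was low in all groups. The FGF18 gene is on chromosome 5 from 171419647 to 171457626 on the plus strand (GRCh38). The estimated counts were 115, 128 and 114 in scramble control and 64, 74 and 40 with LPS. In KD they were 63, 85 and 43 without LPS and 33, 64 and 24 with LPS. In CPM the group means were 2.36 ± 0.149, 1.67 ± 0.754, 1.49 ± 0.385 and 1.05 ± 0.285 (SD, n = 3 libraries each). Scramble control and KD did not overlap without LPS, at −0.66 on the log2 scale (standard error 0.32), while neighbouring groups in the order of means did overlap otherwise. The KD log2 fold change with LPS was −0.66 (standard error 0.49), and LPS went with −0.49 in both scramble control and KD (standard errors 0.35 and 0.48).

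FGF10, the ligand of the FGFR2 form found on epithelial cells, was counted in KD libraries only. Its gene lies on chromosome 5 from 44300247 to 44389706 on the minus strand (GRCh38). It had 0 counts in all 6 scramble libraries, with or without LPS. The KD libraries had 0, 0 and 5 counts without LPS and 11, 7 and 11 counts with LPS. Against a floor of 3 counts per library in scramble control with LPS, KD with LPS was at least 3.45-fold higher. No fold is given without LPS, where both groups were at or near that floor. The floor covers counting error only, these are few reads in libraries of 28.4 to 45.3 M counts, and the call for KD with LPS was lost in each of the 6 fits that left out a library. FGF9, a ligand best known from gonad and lung development, had 24, 10 and 5 counts in scramble control, 19, 9 and 6 with LPS, 13, 16 and 14 in KD and 13, 11 and 9 in KD with LPS. All 4 groups of FGF9 overlapped.

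**Figure D3:**
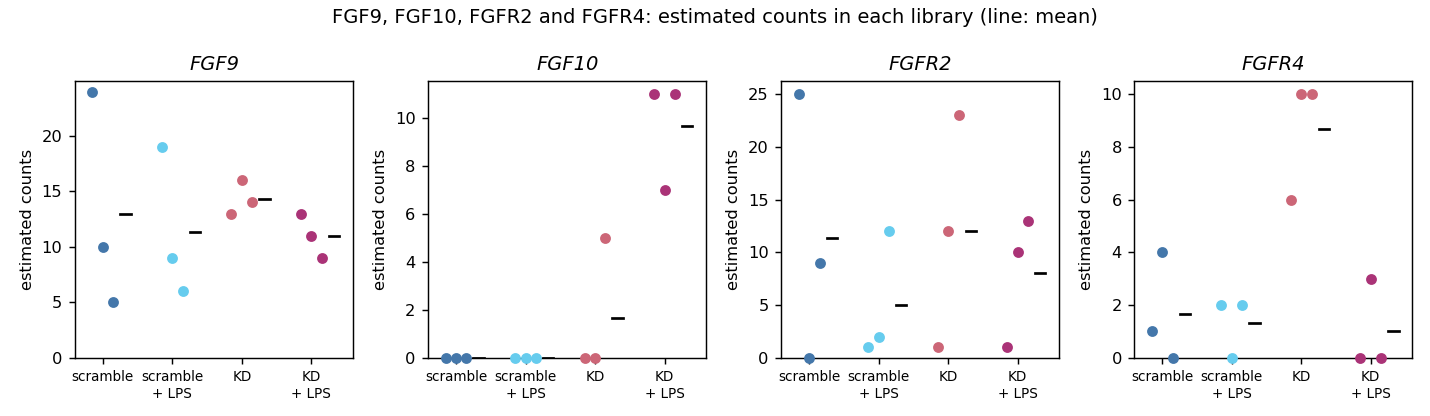
Estimated counts of FGF9, FGF10, FGFR2 and FGFR4 (vertical axes, each from 0) in each library (points) by group (horizontal axes), with a short line at the mean of 3 libraries. FGF10 is at 0 in the 6 scramble libraries and at 7 to 11 counts in KD with LPS, and FGFR4 is at 6 to 10 counts in KD without LPS and at 0 to 4 elsewhere.

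FGFR1, the receptor usual in mesenchymal cells, had nearly all of the counts of the 3 receptors chosen and was lower in KD. Its gene lies on chromosome 8 from 38400215 to 38468834 on the minus strand (GRCh38). The scramble libraries had 507, 564 and 479 CPM. With LPS, they had 378, 568 and 515 CPM, the widest spread of the 4 groups. The KD libraries without LPS had 378, 349 and 402 CPM. With LPS, the KD libraries had 337, 365 and 358 CPM.
The means were 516 ± 43.1, 487 ± 98.1, 376 ± 26.8 and 354 ± 14.5 CPM (SD, n = 3 libraries each). The KD and scramble libraries did not overlap in either condition, but the lowest scramble library with LPS, at 378 CPM, was close to the highest KD library with LPS, at 365 CPM. Its KD log2 fold change was −0.45 (standard error 0.084) without LPS and −0.46 (standard error 0.12) with LPS, 1.37-fold and 1.38-fold lower levels. LPS went with −0.07 (standard error 0.13) in scramble control and −0.09 (standard error 0.073) in KD, and the libraries with and without LPS overlapped in both. The interaction was 0.00 (standard error 0.16). The genes most like FGFR1 over the 12 libraries by the measure above were FAM193A, PIEZO1 and PRRC2A, with differences of 0.09, 0.10 and 0.10. PIEZO1, a mechanically gated ion channel, had means of 284, 257, 198 and 178 CPM in the order of groups above.

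The other receptors among the members, FGFR2 and FGFR4, had few reads. FGFR2, the receptor of FGF7 and FGF10 in its epithelial form, had 25, 0 and 9 counts in scramble control, 1, 2 and 12 with LPS, 1, 12 and 23 in KD and 1, 10 and 13 in KD with LPS. These groups overlapped, and at this depth no difference was detectable. FGFR4, a receptor known best from liver and early muscle, had 1, 4 and 0 counts in scramble control, 2, 0 and 2 with LPS, 6, 10 and 10 in KD and 0, 3 and 0 in KD with LPS. KD without LPS was above the other 9 libraries for FGFR4, 2.56 above scramble control on the log2 scale (standard error 1.5). In that comparison FGFR4 passed the filter of 10 counts in total only through the KD libraries, with 26 counts against 5 in scramble control. FGFR4 was not tested in the pairs of groups with fewer than 10 counts in total, namely KD with LPS against scramble control with LPS and LPS in scramble control.

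Levels can be compared between genes only per length. By the longest annotated transcript, scramble control had 83.1 CPM per kb for FGFR1, 60.1 for FGF2, 17.3 for FGF5 and 17.2 for FGF7. In KD with LPS the levels by the longest transcript were 135 CPM per kb for FGF2, 56.9 for FGFR1 and 50.8 for FGF7. The longest transcripts of these genes have 6801, 6216 and 5321 bases, but their median lengths are 6652, 1937 and 1133.5 bases. The order of these genes in KD with LPS therefore also depends on the length used. With the median transcript length in place of the longest, scramble control had 267 CPM per kb for FGFR1, 80.5 for FGF7, 61.4 for FGF2 and 30.3 for FGF5. The order of FGF2 and FGF7 thus depended on the length used, and FGFR1 was highest in scramble control by both.

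A gene was called when its adjusted p was under 0.05 by edgeR's quasi-likelihood test and its difference was at least 2-fold. In KD without LPS, 4.28% of 16217 tested genes were called higher and 3.49% lower. Of 9 members tested there, 2 were called, FGF1 and FGF5, both lower. In KD with LPS, 4.58% of 15981 genes were called higher and 3.90% lower, and of 9 members tested FGF2 and FGF10 were called, both higher. With LPS in scramble control, 1.40% of 15920 genes were called higher and 1.28% lower, and of 8 members tested FGF1 and FGF5 were called, both lower. With LPS in KD, 1.30% of 16169 genes were called higher and 0.946% lower, and of 10 members tested FGF2 was called, higher. For the interaction, called by the adjusted p alone, 0.943% of 17173 genes were more positive with LPS and 0.332% more negative, and of 10 members FGF2 was called, more positive. The members' values helped to choose them, so nothing is read from these counts. The median log2 fold changes of the tested members were −0.16, −0.01, −0.28, −0.19 and 0.29 in the same order, and those of all tested genes were 0.0243, 0.0252, 0.0200, 0.0099 and 0.0096. FGF10 was not tested in KD without LPS or with LPS in scramble control. In KD with LPS against scramble control with LPS, FGF10 passed the filter of 10 counts in total only through the KD libraries. Its call there could therefore only be higher. FGFR4 in KD without LPS, and FGF10 and FGFR4 with LPS in KD, likewise passed only through the group where each was higher. The comparisons share groups of libraries, so their values are not independent of each other.

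**Figure D4:**
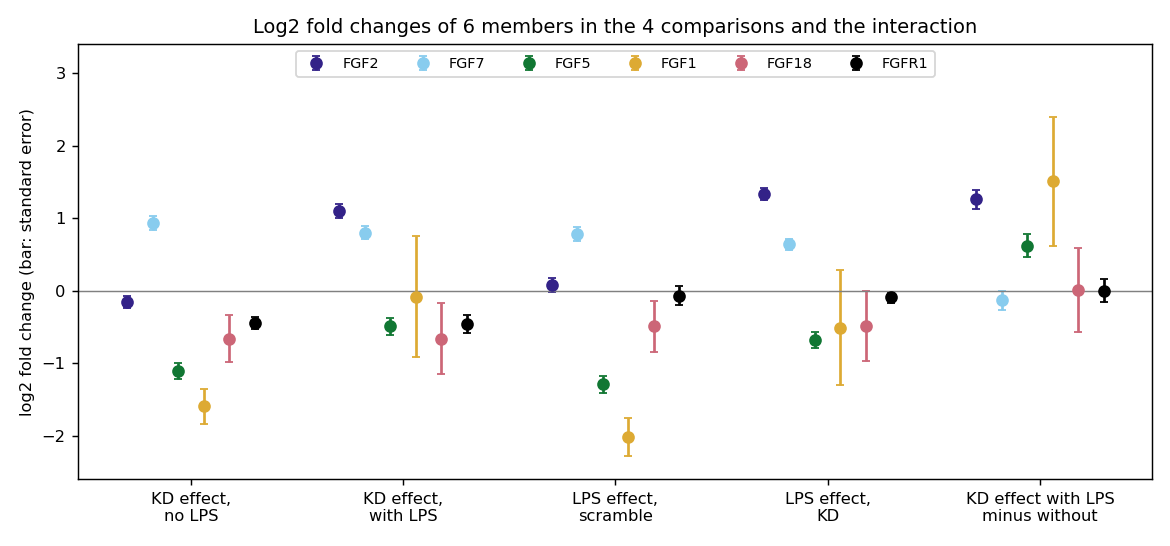
Log2 fold changes (vertical axis) of FGF2, FGF7, FGF5, FGF1, FGF18 and FGFR1 in the 4 comparisons and the interaction (horizontal axis), with bars for the standard error of each fit. FGF2 lies at 1.10 and 1.33 in the comparisons that include KD with LPS and at −0.16 and 0.08 in the other pair, and FGFR1 lies at −0.45 and −0.46 for the KD and near 0 for LPS.

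The other genes of the pathway were not members, and their p-values are adjusted over all tested genes. Among 22 heparan sulfate proteoglycans and their enzymes, 20 were tested in each comparison. In KD without LPS, 1 was called higher and 4 lower. HPSE, which encodes heparanase, an enzyme that cuts heparan sulfate, was lower (log2 fold change −1.70, standard error 0.22, adjusted p = 0.00013 by edgeR). The glypicans GPC6 and GPC1, proteoglycans anchored to the membrane by a lipid, were lower by edgeR's test with log2 fold changes of −1.59 (adjusted p = 1.1e-07) and −1.17 (adjusted p = 2.3e-06). SDC1, a syndecan typical of epithelial cells, was higher (1.36, standard error 0.29, adjusted p = 0.0039 by edgeR). HSPG2, which encodes the matrix proteoglycan perlecan, was the other gene called lower and is named after its values were seen. The median of the list was −0.21, against 0.0243 for all genes.

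With LPS present, 2 of the 20 were called higher in KD and 4 lower, with a median of −0.21. SDC4, a syndecan of cell adhesion sites, had 342, 414 and 400 CPM in scramble control with LPS and 1224, 1216 and 1222 CPM in KD with LPS. KD raised it by 1.66 on the log2 scale (standard error 0.079, adjusted p = 5.3e-09 by edgeR). Without LPS, SDC4 had 248, 283 and 291 CPM in scramble control and 375, 359 and 373 CPM in KD.
Like FGF2, SDC4 had its highest values in KD with LPS, and none of the other 9 libraries reached them. In KD, LPS raised SDC4 by 1.73 on the log2 scale (standard error 0.062, adjusted p = 1.3e-10 by edgeR), and the interaction was 1.24 (standard error 0.11, adjusted p = 4.5e-05 by edgeR). GPC6 and GPC1 were lower in KD with LPS too, at −1.71 (adjusted p = 1.5e-08) and −1.68 (adjusted p = 2.5e-07) by edgeR's test. HPSE and HSPG2 were the other genes called lower, named after their values were seen. HS6ST3, a heparan sulfate 6-O-sulfotransferase, was higher at 12 to 17 against 42 to 173 counts per library (log2 fold change 2.43, standard error 0.54, adjusted p = 0.0039 by edgeR). Without KD with LPS replicate 2 its adjusted p by edgeR was 0.06.

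With LPS in scramble control, 0 of the 20 heparan sulfate genes were called. With LPS in KD, SDC4 was called higher and SDC1 lower (log2 fold change −1.38, standard error 0.36, adjusted p = 0.021 by edgeR). The SDC1 call was lost without KD replicate 3 or without KD with LPS replicate 1 or 2, with adjusted p-values of 0.082, 0.066 and 0.079 by edgeR.

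Among 16 targets and feedback inhibitors of FGF signalling, SPRY2, a Sprouty inhibitor of receptor signalling, fell with LPS under both shRNAs. It had 138, 139 and 119 CPM in scramble control and 45.6, 43.0 and 52.6 CPM with LPS, lower by −1.47 on the log2 scale (standard error 0.097, adjusted p = 2.2e-06 by edgeR). In KD SPRY2 had 123, 105 and 101 CPM without LPS and 48.2, 49.1 and 53.9 CPM with LPS, lower by −1.12 on that scale (standard error 0.097, adjusted p = 2.1e-06 by edgeR). Libraries with and without LPS did not overlap for SPRY2 under either shRNA.
SPRY1 was lower with LPS in scramble control (−1.02, standard error 0.11, adjusted p = 6e-05 by edgeR). Its difference fell just under 2-fold, to between −0.93 and −1, without scramble replicate 1 or 2 or scramble with LPS replicate 2. These were the 2 of 14 tested targets called in scramble control, and SPRY2 was the only 1 of 16 called in KD. Under 2-fold, SPRED2 (−0.89, adjusted p = 2.75e-05), SPRED1 (−0.78, 0.000549) and SPRY4 (−0.72, 4.81e-05) were also lower with LPS in scramble control by edgeR. In KD, SPRY4 (−0.73, adjusted p = 3.25e-05), SPRED1 (−0.46, 0.00753) and SPRY1 (−0.41, 0.0465) were lower by edgeR. FLRT2 was higher by edgeR, at 0.47 (adjusted p = 0.0143) in scramble control and 0.59 (0.00121) in KD. The DUSP and ETV genes of the list did not pass an adjusted p of 0.05 by edgeR with LPS under either shRNA. In scramble control their log2 fold changes with LPS were −0.24 for DUSP6, −0.22 for DUSP5, 0.31 for ETV1, 0.05 for ETV4 and 0.28 for ETV5. The genes under 2-fold were singled out after their values were seen. ETV1, a transcription factor downstream of MAP kinases, was called higher in KD without LPS, the only 1 of 15 (1.12, standard error 0.27, adjusted p = 0.0082 by edgeR). It was at 0.87 without scramble replicate 2. Under 2-fold in KD without LPS, SPRY1 (−0.90, adjusted p = 2.4e-05), SPRED1 (−0.52, 0.000568), SPRED2 (−0.34, 0.00617) and DUSP5 (−0.29, 0.0342) were lower by edgeR. SPRY4 (0.33, adjusted p = 0.00545 by edgeR) was higher, and these genes too were named after their values were seen. In KD with LPS, 0 of 15 targets were called against scramble control with LPS. SPRED2, an inhibitor of RAF activation, was the 1 of 16 called for the interaction (0.60, standard error 0.13, adjusted p = 0.03 by edgeR). It had 62.9 to 69.0 CPM in scramble control, 33.8 to 37.9 with LPS, 51.2 to 54 in KD and 37.5 to 48.0 in KD with LPS. The SPRED2 call was lost, with adjusted p-values of 0.057 to 0.098 by edgeR, without scramble replicate 2 or 3, scramble with LPS replicate 1 or 2, KD replicate 1 or 3, or KD with LPS replicate 1 or 3.

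None of the 16 intracellular signal carriers, such as the adaptors FRS2 and GRB2, was called in any of the 4 comparisons or the interaction. Their log2 fold changes lay between −0.69 and 0.80 over the 4 comparisons of groups. Of 15 other FGF ligands and homologous factors, 7 or 8 were tested, and FGF12 alone was called, higher in KD without LPS at 7 to 49 against 4 to 5 counts per library and named after its values were seen. Of 4 FGF-binding and release proteins 2 were tested, and FGFBP2 was called in the same comparison with 0 counts in scramble control and 6 to 72 in KD, likewise named after its values were seen. FGFBP2 passed the count filter there through the KD libraries alone. Of the receptors and co-receptors FGFR3, FGFRL1, KL and KLB, 2 were tested and 0 were called in any comparison by edgeR's adjusted p and fold. FGFRL1 was lower in all 4 comparisons by less than 2-fold and is named after its values were seen. Its KD log2 fold changes were −0.53 without LPS and −0.61 with LPS. For LPS they were −0.67 in scramble control and −0.76 in KD. The adjusted p-values by edgeR were 0.0034, 0.00064, 0.00047 and 0.00053 in that order. KLB, the other gene tested, had adjusted p-values of 0.0993 to 0.753 by edgeR in these comparisons.

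**Figure D5:**
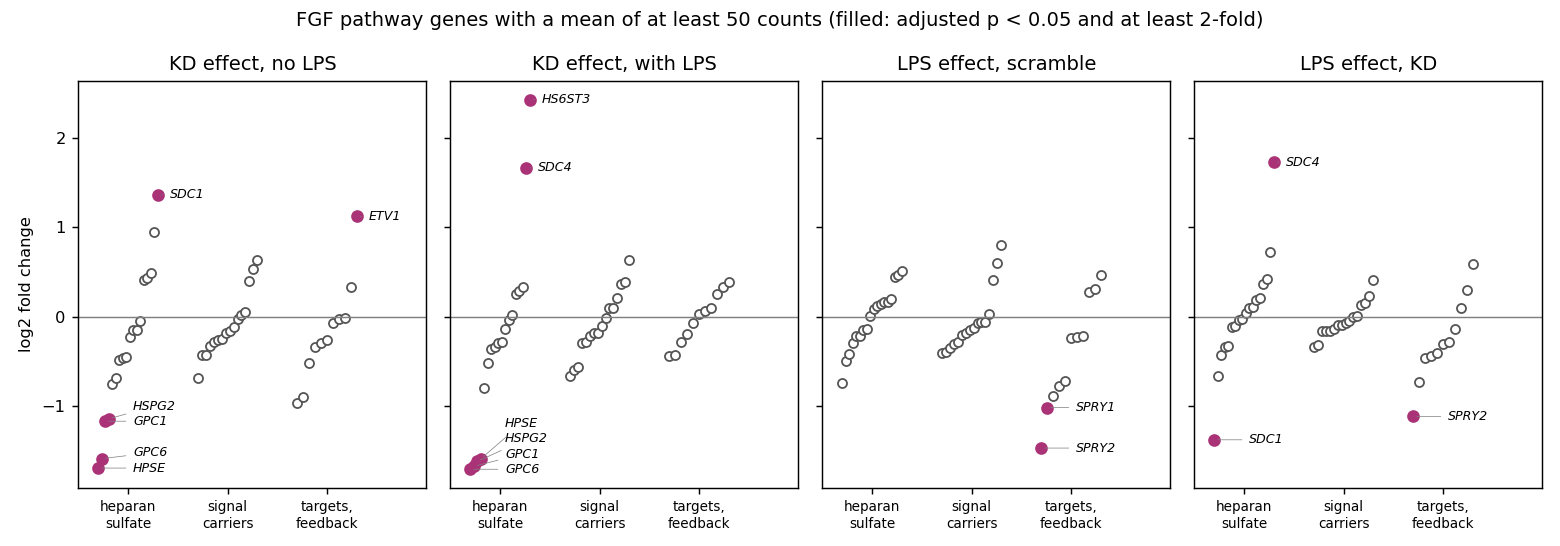
Log2 fold changes (vertical axis) of pathway genes averaging 50 counts or more per library in the 4 comparisons (panels), grouped on the horizontal axis as heparan sulfate proteoglycans and their enzymes, intracellular signal carriers, and targets with feedback inhibitors. Each point is a gene, and filled points are called, with SDC4 at 1.66 and 1.73 in the 2 panels that involve KD with LPS and SPRY2 at −1.47 and −1.12 in the LPS panels.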

How the data were processed

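RNA-seq of 12 libraries was analysed. The authors pseudoaligned reads to a GRCh38 transcriptome index with kallisto 0.44.0 and deposited estimated counts per gene name, whole numbers without scaling for depth or length. The annotation release and the strand setting are not given in the sources used here. A row without a gene name (0.235% to 0.306% of a library) was left out. Groups follow the labels. In R 4.3.3, counts were rounded, genes below 10 counts in total over a fit's libraries were dropped, and edgeR 4.0.16 (TMM, quasi-likelihood F test, Benjamini-Hochberg over all genes) was run on the 6 libraries of each comparison, or all 12 for the interaction. The standard error is the log2 fold change over the square root of F. The study used DESeq2, and DESeq2 1.42.0 was an alternative. Other alternatives were other scalings and filters, all 12 libraries, a replicate block and each library left out. The deviations of same-numbered libraries of scramble control with and without LPS had correlations of 0.34, 0.21 and 0.13. Over all pairs of groups such correlations ran from −0.34 to 0.34, so a pairing, which the labels do not give, is not settled. Fits were tested on simulated data. Members and lists were chosen with earlier results of these data known. All members were named, and of each pathway list up to 4 called genes a comparison with the largest change, a mean of at least 50 counts and groups that did not overlap. Positions come from GENCODE on GRCh38 and promoters from RefSeq (GRCh38.p14). P-values measure the spread between libraries of the same experiment.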

Additional observations from a re-analysis of the deposited data

Results flagged for a closer look

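In 3 genes of the FGF system the KD log2 fold change differed between libraries with and without LPS, by the interaction term of edgeR's fit on all 12 libraries. For FGF2 the interaction was 1.26 (standard error 0.13); as a member chosen from these libraries it is given as a description. For SDC4 it was 1.24 (standard error 0.11, adjusted p = 4.5e-05 by edgeR), and in each of the 18 other fits it stayed past the threshold. For SPRED2 it was 0.60 (standard error 0.13, adjusted p = 0.03 by edgeR), and 8 of the 12 fits that left out a library were above the threshold, with adjusted p-values over all alternatives of 0.003 to 0.098 by edgeR or DESeq2.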

How the results depend on the processing

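The number of genes called for the interaction was 219, against 475 by the DESeq2 Wald test and 431 without a filter on low counts, and it was 92 to 243 in fits that lacked a library, the lowest without scramble replicate 2. With the replicate number as a block it was 231. The numbers of calls in the 4 comparisons of groups stayed within 1.5 times of 1260, 1355, 426 and 363 under every alternative run, with 1161, 1302, 473 and 456 under the block. Over all pairs of groups the correlations of same-numbered deviations ran from −0.34 to 0.34, and 7 of 18 were over 0.1. For replicates 1 to 3 they were −0.18, −0.10 and −0.21 between scramble control and KD without LPS. With LPS the corresponding values were 0.07, 0.33 and 0.07, and between KD with and without LPS they were 0.17, −0.31 and 0.15. Whether the replicate numbers pair the libraries is not settled by these values, in these 3 comparisons or for LPS in scramble control. In the latter, where the correlations were 0.34, 0.21 and 0.13, the block changed the call of no member, and SPRY1 and SPRY2 stayed called. Of 46 log2 fold changes of members, 41 kept their call in every alternative and 31 kept their sign, and the sign changes were in values not called. The KD call of FGF1 without LPS was lost in the fit on all 12 libraries. FGF10 lost its call in that fit and under the block. FGF5 lost its KD call without LPS when scaled by library size alone, and it was called for the interaction by DESeq2, without a filter and under the block. Scaling by library size alone moved the median log2 fold change of all genes to 0.13 without LPS and 0.11 with LPS for the KD, and the FGFR1 value without LPS to −0.35. The cause was not tested. FGF9, FGF10, FGFR2 and FGFR4 had at most 25 counts per library, which limits any statement on them.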

Other observations

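FGF23, a hormone-like FGF made mainly by bone cells, was not among the genes chosen but had 31517 to 43322 counts in every library. Its values were 634 to 719 CPM in scramble control, 739 to 1187 CPM with LPS, 719 to 1019 CPM in KD and 932 to 1357 CPM in KD with LPS. The counts varied less between libraries than the library totals did. Why the counts were so even was not tested, and the values are not read as an expression level. FGF23 was singled out after its values were seen.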
